A study of Mus musculus with 12 samples.

Results

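The 7 genes described here, Atf3, Jun, Sox11, Gap43, Ecel1, Sprr1a and Gal, are known to rise in retinal ganglion cells when their axons are injured. They were taken from the expression matrix by gene symbol, and all 7 were found among its 40202 genes. The study asked about the conversion of rods to cone-like cells under Nrl knockdown, and holds 12 RNA-seq libraries of whole retina from C57BL/6J mice in 4 groups of 3. The groups were retina with laser-induced choroidal neovascularisation (CNV) after cp-asiNRL, CNV retina after vehicle, wild-type (WT) retina after cp-asiNRL and WT retina after vehicle. The agent cp-asiNRL, an asymmetric siRNA built to enter cells unaided, targets Nrl, the transcription factor that sets the rod fate. Each eye received 1 µl intravitreally, either cp-asiNRL at 6 µg/µl or the vehicle 0.5X PBS, so every group carried an injection and none was an uninjected retina. The labels give no age, no time after injection and no number of animals per library, so the p-values rest on the spread among libraries alone, which may be technical.

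The response of ganglion cells to axon damage is known to begin with stress kinases of the DLK and JNK family, which activate the transcription factor Jun. Atf3 and Jun are basic leucine zipper factors of the stress response and can pair with each other, while Sox11 is a high-mobility-group factor of developing and injured neurons. Gap43 is a growth cone protein, Ecel1 is a membrane protein of the endopeptidase family, Sprr1a is a small proline-rich protein found in regrowing axons, and Gal encodes the neuropeptide galanin. Atf3 and Jun are also known to be induced in other stressed cells, glia included. Because whole retina was sequenced, fewer cells of a type and less RNA per cell cannot be told apart.

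Each library held between 51298466 and 69394486 reads in genes. Levels are given as CPM, reads scaled to a common library total with a factor per library, and differences as log2(CPM + 1), tested with limma across 25619 genes with Benjamini-Hochberg adjustment at 0.05. Nrl stood at 263 to 483 CPM in CNV cp-asiNRL retina, 423 to 524 CPM in CNV vehicle retina, 397 to 467 CPM in WT cp-asiNRL retina and 505 to 560 CPM in WT vehicle retina. In the library labelled CNV cp-asiNRL replicate 2, Nrl was at 483 CPM, within the range of CNV vehicle retina. For cp-asiNRL against vehicle, the limma test did not call Nrl in WT retina (ratio of mean CPM 0.79, adjusted p = 0.318). Nrl was also not called in CNV retina (0.77, adjusted p = 0.25) or in the mean of both (adjusted p = 0.0716). It was called lower in CNV cp-asiNRL than in WT vehicle retina (ratio 0.66, adjusted p = 0.029). Markers of ganglion cells, the cells whose axons form the optic nerve, summed to 467 to 491 CPM in CNV cp-asiNRL, 450 to 515 CPM in CNV vehicle, 442 to 458 CPM in WT cp-asiNRL and 482 to 509 CPM in WT vehicle retina, with none of the 16 genes at 0 in all libraries.

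The 7 genes lie on the minus strand of GRCm39, the build of the coordinates in the deposited file. Atf3 occupies chr1:190902493-190915530, Ecel1 chr1:87070596-87084807, Sprr1a chr3:92391261-92393188, Jun chr4:94937273-94940459, Sox11 chr12:27384267-27392717, Gap43 chr16:42068915-42161014 and Gal chr19:3459915-3464544. No other gene of the table overlaps Atf3, Jun, Sox11, Sprr1a or Gal. Jun is separated by 107 bases from Junos, which lies on the plus strand and averaged 16.4 CPM. Gap43 contains Mir6540, and Ecel1 overlaps the low gene models Gm51638 and Gm33292 on the plus strand. Whether counting used the strand is not given in the sources used here, so reads of Ecel1 and of those 2 models cannot be told apart.

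Promoter windows show where the AP-1 and cyclic AMP response element (CRE) letters stand in the transcription factor genes and in Sprr1a. RefSeq windows on GRCm38.p6 were matched for 6 of the 7 genes, with Gap43 not matched, and the 250 bases before the start site of 4 of them are shown, all on the minus strand. They cover chr1:191183334-191183583 for Atf3, chr4:95052223-95052472 for Jun, chr12:27342719-27342968 for Sox11 and chr3:92485882-92486131 for Sprr1a. Capitals mark TNACNTCA, a CRE-like motif, and TGANTCA, the AP-1 motif, on either strand.
Atf3: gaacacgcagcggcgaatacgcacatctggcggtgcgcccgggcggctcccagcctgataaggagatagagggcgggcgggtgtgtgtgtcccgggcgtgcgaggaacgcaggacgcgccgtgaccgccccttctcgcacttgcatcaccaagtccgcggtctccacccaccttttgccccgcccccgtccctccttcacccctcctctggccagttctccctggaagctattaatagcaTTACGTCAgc
Jun: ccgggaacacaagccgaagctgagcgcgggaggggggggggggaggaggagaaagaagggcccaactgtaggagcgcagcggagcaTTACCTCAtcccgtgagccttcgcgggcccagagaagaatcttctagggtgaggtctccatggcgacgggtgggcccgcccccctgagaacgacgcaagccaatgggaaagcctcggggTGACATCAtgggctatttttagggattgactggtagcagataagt
Sox11: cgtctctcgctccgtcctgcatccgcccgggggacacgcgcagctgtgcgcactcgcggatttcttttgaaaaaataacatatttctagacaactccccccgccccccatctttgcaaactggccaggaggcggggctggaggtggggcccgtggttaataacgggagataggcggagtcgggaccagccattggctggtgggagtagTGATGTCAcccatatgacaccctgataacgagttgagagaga
Sprr1a: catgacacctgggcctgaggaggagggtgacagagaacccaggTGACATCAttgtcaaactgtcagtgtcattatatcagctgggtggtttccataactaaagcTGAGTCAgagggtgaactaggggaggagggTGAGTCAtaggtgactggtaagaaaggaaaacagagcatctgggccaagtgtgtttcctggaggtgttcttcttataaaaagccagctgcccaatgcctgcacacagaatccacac

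The CRE-like letters occurred 1 time in the Atf3 window, 10 to 3 bases before the start, and 2 times in the Jun window, at 164 to 157 and at 45 to 38 bases before it. Sox11 held them 1 time, on the opposite strand, 42 to 35 bases before the start, and Sprr1a 1 time at 207 to 200 bases. Sprr1a also held the AP-1 letters 2 times, at 146 to 140 and at 116 to 110 bases before its start. Neither motif was found in the windows of Ecel1 and Gal. Of 32851 windows of this length, 14% held the CRE-like letters and 6.75% the AP-1 letters. The 2 patterns differ in length and do not share a place in these windows, and they were chosen with the sequences in view, so the matches are a description of letters only.

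**Figure D1:**
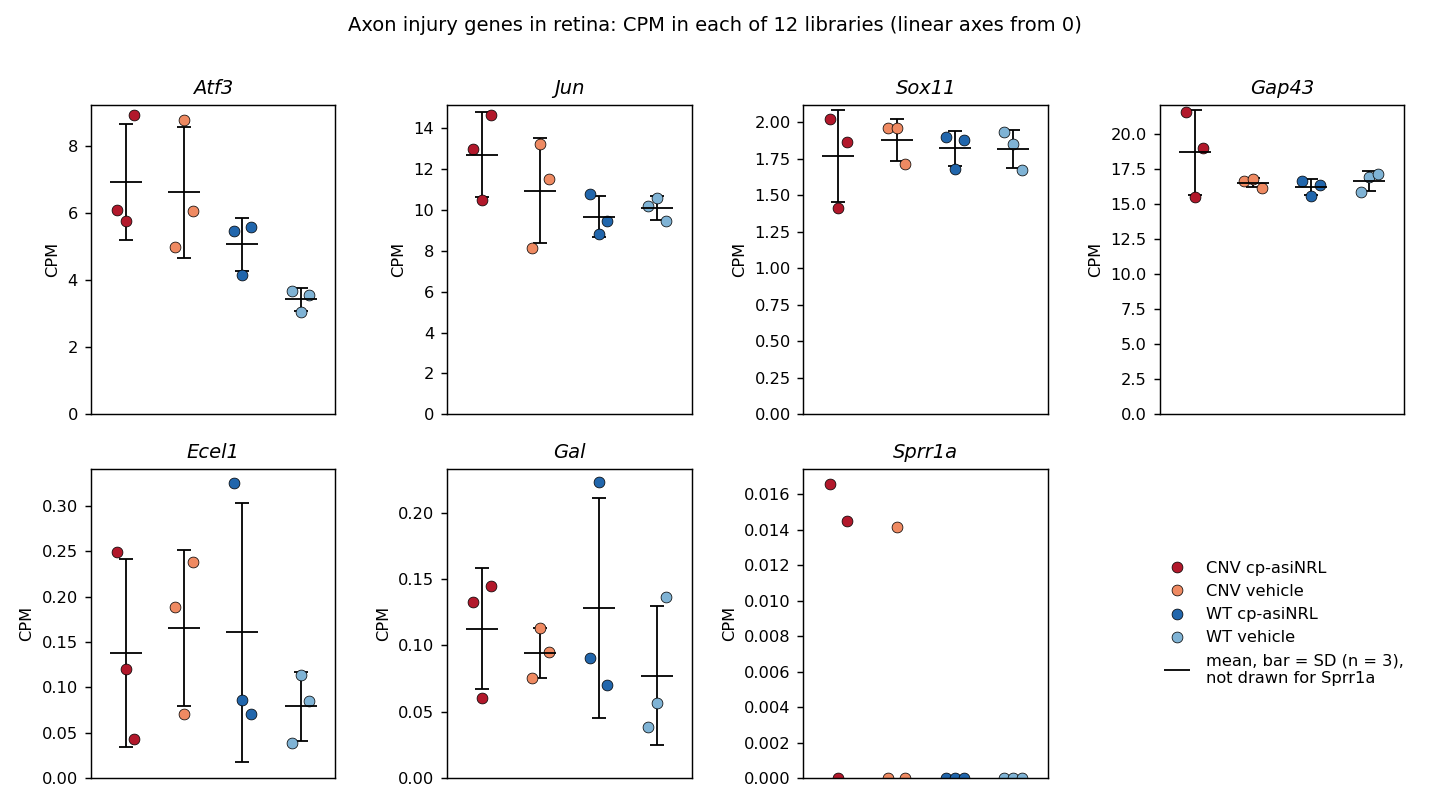
CPM of the 7 genes in each of the 12 libraries, on linear axes from 0 with a scale of its own for each gene. Points are libraries, horizontal lines means and bars SD (n = 3 per group). Atf3 is lowest in the 3 WT vehicle libraries, Sox11 and most Gap43 values are level across groups, and Sprr1a is at 0 in 9 libraries.

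Per kilobase of gene span, introns included, Jun was the most abundant of the 7 genes at a mean of 3.40 CPM per kb over the 12 libraries. Atf3 followed at 0.423, Sox11 at 0.216, Gap43 at 0.185, Gal at 0.0223, Ecel1 at 0.00956 and Sprr1a at 0.00195 CPM per kb. Jun exceeded Atf3 in 12 of 12 libraries with no overlap of their ranges, and Gap43 exceeded Gal likewise. Atf3 exceeded Sox11 within each of the 12 libraries, although their ranges overlapped. Sox11 and Gap43 had overlapping ranges, 0.167 to 0.240 and 0.168 to 0.234 CPM per kb, with Sox11 higher in 11 libraries. Gal and Ecel1 likewise overlapped. The span of Gap43 is 92100 bases against 3187 for Jun, so introns weigh most on the value of Gap43. Without division by span, Gap43 was highest at a mean of 17.0 CPM, beside 10.8 CPM for Jun and 5.51 CPM for Atf3, so the order of the 7 genes depends on that division.

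Atf3 had 6.09, 5.78 and 8.93 CPM in CNV cp-asiNRL retina, 5.004, 8.78 and 6.08 CPM in CNV vehicle retina, 5.48, 4.16 and 5.58 CPM in WT cp-asiNRL retina, and 3.69, 3.04 and 3.55 CPM in WT vehicle retina. All 9 other libraries were above the 3 WT vehicle libraries, and the groups ordered as CNV cp-asiNRL (6.93 ± 1.73), CNV vehicle (6.62 ± 1.94), WT cp-asiNRL (5.07 ± 0.794) and WT vehicle (3.43 ± 0.343; SD, n = 3 each). The first 2 groups overlapped, as did CNV vehicle and WT cp-asiNRL, while WT cp-asiNRL and WT vehicle did not. Reads behind these values ran from 161 to 621 per library.

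Atf3 passed the test in 1 comparison, CNV cp-asiNRL against WT vehicle retina, where it rose by 0.82 on the log2 scale (SE 0.17, adjusted p = 0.0217), a ratio of mean CPM of 2.02. That comparison changes the laser and the injection together, and the share of each cannot be told apart in it. It called 2523 genes, 9.85% of those tested, and 3397 genes (13.3%) were higher there with no overlap between groups, as Atf3 was. The call for Atf3 held in 15 of 22 alternatives, and its difference was above 0 in all 22, from 0.65 to 1.01. It ended with no filter on low values (adjusted p = 0.0675), with only the 6 libraries of the 2 groups in the fit (0.0835), without CNV cp-asiNRL replicate 1 (0.111) or replicate 3 (0.0937), and without WT vehicle replicate 1, 2 or 3 (0.0909, 0.0551 and 0.0813).

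**Figure D2:**
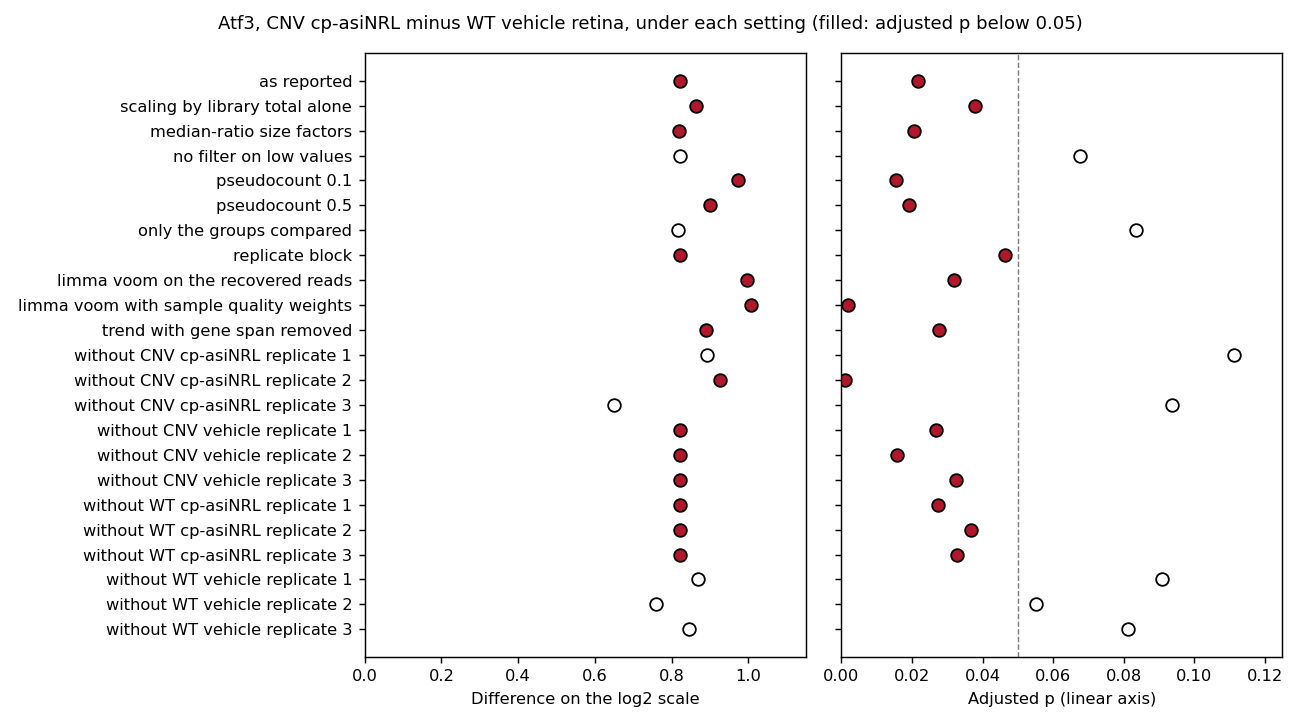
Difference of Atf3 between CNV cp-asiNRL and WT vehicle retina under each setting, on the log2 scale (left) and as its adjusted p (right). Filled points lie below the dashed line at 0.05. The difference stays above 0 throughout, and the 7 open points are the settings in which the adjusted p rose above 0.05.

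Under the laser with vehicle, Atf3 stood 0.76 above WT vehicle on the log2 scale (SE 0.17, 95% confidence interval 0.39 to 1.12, ratio of mean CPM 1.93), with no overlap between the groups but an adjusted p of 0.329. No gene was called in this comparison by limma (0% of 25619), where 1965 genes had an unadjusted p under 0.05, 34 were called with sample quality weights and 0 with voom, and 7.54% of genes were higher with no overlap. With only these 6 libraries in the fit, the adjusted p of Atf3 was 0.0224, and 0.613% of all genes were called. Between the cp-asiNRL groups the laser difference of Atf3 was 0.37 (SE 0.17, adjusted p = 0.284), again without overlap, beside 8.83% of genes higher without overlap. No gene was called there either (0%), with 4407 under an unadjusted p of 0.05, 4405 called with quality weights and 0 with voom. Averaged over both injections, the laser difference was 0.56 (SE 0.12, adjusted p = 0.0971), and 1 gene of the table, 0.0039%, was called. With the library labelled CNV cp-asiNRL replicate 2 left out, that average was 0.62 with an adjusted p of 0.00244, and with quality weights 0.72 with an adjusted p of 0.00433. Those 2 settings called 17% and 13.7% of all genes for the laser mean. These were the 2 of 21 alternatives in which the mean laser difference of Atf3 passed, and it was 0.47 (adjusted p = 0.214) without CNV vehicle replicate 2. After cp-asiNRL, the laser difference of Atf3 was 0.20 (adjusted p = 0.75) without CNV cp-asiNRL replicate 3.

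After cp-asiNRL in WT retina, Atf3 stood 0.45 above vehicle (SE 0.17, 95% confidence interval 0.09 to 0.81, adjusted p = 0.231), a ratio of mean CPM of 1.48 with no overlap between groups. This comparison called 36 genes, 0.141% of those tested, and 11% of genes were higher without overlap. With only these 6 libraries in the fit, the adjusted p was 0.0139, and 8.38% of all genes were called. In CNV retina the cp-asiNRL difference of Atf3 was 0.07 (SE 0.17, adjusted p = 0.873), with overlapping groups and 12 genes called, or 0.0468%. The mean of both cp-asiNRL differences was 0.26 (SE 0.12, adjusted p = 0.206), beside 605 called genes, or 2.36%. The cp-asiNRL difference in CNV retina minus that in WT retina was -0.38 (SE 0.24, adjusted p = 0.796). No gene passed that test of the difference (0%), where 1591 had an unadjusted p under 0.05 and neither voom nor quality weights called any. The comparisons share libraries: WT vehicle enters 3 of the 5 that set 1 group against another, and so does CNV cp-asiNRL.

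Jun, the transcription factor that JNK activates, had 12.96, 10.5 and 14.6 CPM in CNV cp-asiNRL retina, 8.12, 13.2 and 11.5 CPM in CNV vehicle retina, 10.7, 8.83 and 9.43 CPM in WT cp-asiNRL retina, and 10.2, 10.6 and 9.46 CPM in WT vehicle retina. The groups overlapped in every comparison, and CNV vehicle replicate 1 was the lowest of the 12 libraries. Its mean was 12.7 ± 2.09 in CNV cp-asiNRL, 10.9 ± 2.58 in CNV vehicle, 9.67 ± 0.982 in WT cp-asiNRL and 10.1 ± 0.573 CPM in WT vehicle retina (SD, n = 3 each). The largest difference of Jun was 0.35 (SE 0.14, 95% confidence interval 0.05 to 0.65), for CNV against WT retina after cp-asiNRL, with an adjusted p of 0.241. Against WT vehicle, CNV cp-asiNRL retina differed by 0.29 (SE 0.14, adjusted p = 0.166). With the library labelled CNV cp-asiNRL replicate 2 left out, 17.9% and 32.1% of all genes were called in these comparisons. Without that CNV cp-asiNRL library, the differences of Jun were 0.47 (adjusted p = 0.0236) and 0.42 (adjusted p = 0.0266). With replicate 3 of that group left out instead, Jun differed by 0.19 from WT vehicle (adjusted p = 0.479), and the lowest difference with any 1 library left out was 0.25 for CNV against WT after cp-asiNRL. The other 3 comparisons between groups gave Jun 0.21, 0.08 and -0.06, for cp-asiNRL in CNV retina, the laser after vehicle and cp-asiNRL in WT retina.

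Sox11 had 2.02, 1.42 and 1.87 CPM in CNV cp-asiNRL retina, 1.96, 1.96 and 1.71 CPM in CNV vehicle retina, 1.90, 1.68 and 1.88 CPM in WT cp-asiNRL retina, and 1.93, 1.85 and 1.67 CPM in WT vehicle retina. The lowest value belonged to the library labelled CNV cp-asiNRL replicate 2, and the other 11 lay between 1.67 and 2.02. Its differences ran from -0.06 to 0.03 in the 5 comparisons between groups, with 94 to 139 reads per library behind them. The 95% confidence interval for CNV cp-asiNRL against WT vehicle, -0.23 to 0.17, leaves room for a change of up to about that size in either direction. The related factors Sox4 and Sox12, which are also active in developing neurons, were not called in any comparison. Sox4 averaged 7.98 ± 1.56 CPM in CNV cp-asiNRL and 7.11 ± 0.139 CPM in WT vehicle retina, and Sox12 6.22 ± 0.387 and 6.25 ± 0.147 CPM (SD, n = 3 each).

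Gap43 had 21.6, 15.5 and 19.0 CPM in CNV cp-asiNRL retina, 16.6, 16.8 and 16.2 CPM in CNV vehicle retina, 16.7, 15.6 and 16.4 CPM in WT cp-asiNRL retina, and 15.8, 16.9 and 17.2 CPM in WT vehicle retina. CNV cp-asiNRL replicates 1 and 3 were above all 9 libraries of the other groups, and replicate 2 was the lowest of all 12. Its largest difference was 0.18 (SE 0.09, adjusted p = 0.298), for CNV against WT retina after cp-asiNRL. With the library labelled CNV cp-asiNRL replicate 2 left out, Gap43 differed by 0.31 in that comparison (adjusted p = 0.0066), by 0.28 between CNV cp-asiNRL and CNV vehicle retina (adjusted p = 0.0116), and by 0.27 between CNV cp-asiNRL and WT vehicle retina (adjusted p = 0.00673). With CNV cp-asiNRL replicate 1 left out instead, the Gap43 differences were 0.0804, 0.0527 and 0.0439 in those 3 comparisons, the last with an adjusted p of 0.784 beside 0.15 (adjusted p = 0.264) with all libraries. The share of all genes called in the last comparison rose to 32.1% when replicate 2, not replicate 1, was the one omitted. In that fit without replicate 2, 3 of the 5 tested members (Atf3, Jun and Gap43) were called.

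Ecel1, Gal and Sprr1a were near the limit of what this depth can show. Ecel1 had 15, 8 and 3 reads in CNV cp-asiNRL retina, 10, 5 and 15 reads in CNV vehicle retina, 18, 5 and 4 reads in WT cp-asiNRL retina, and 2, 6 and 5 reads in WT vehicle retina. Its groups overlapped in every comparison, and its differences ran from -0.04 to 0.11, on a scale that understates changes of low genes. Ecel1 averaged 0.138, 0.166, 0.161 and 0.0791 CPM in these groups, in the same order, so small differences do not show that it was unchanged. It passed the filter on low values through libraries of the first 3 groups. Gal had 8, 4 and 10 reads in CNV cp-asiNRL retina, 4, 8 and 6 reads in CNV vehicle retina, 5, 13 and 4 reads in WT cp-asiNRL retina, and 2, 3 and 8 reads in WT vehicle retina. Gal did not pass the filter and was not tested, and its groups also overlapped. Sprr1a had 1 read in CNV cp-asiNRL replicates 1 and 3 and in CNV vehicle replicate 2, and 0 in the other 9 libraries. A count of 0 allows up to 3 reads, or 0.0452 to 0.0580 CPM in those 9 libraries, for counting error only. The 13 relatives of Sprr1a in the table were all too low to test, and reads may be split among such similar genes. Among 12 corneal and conjunctival markers, a tissue in which small proline-rich genes are abundant, Krt14 and Sprr1b were at 0 in all libraries, and the list summed to 2.18 to 3.21 CPM in CNV cp-asiNRL and 1.52 to 2.01 CPM in WT vehicle retina.

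**Figure D3:**
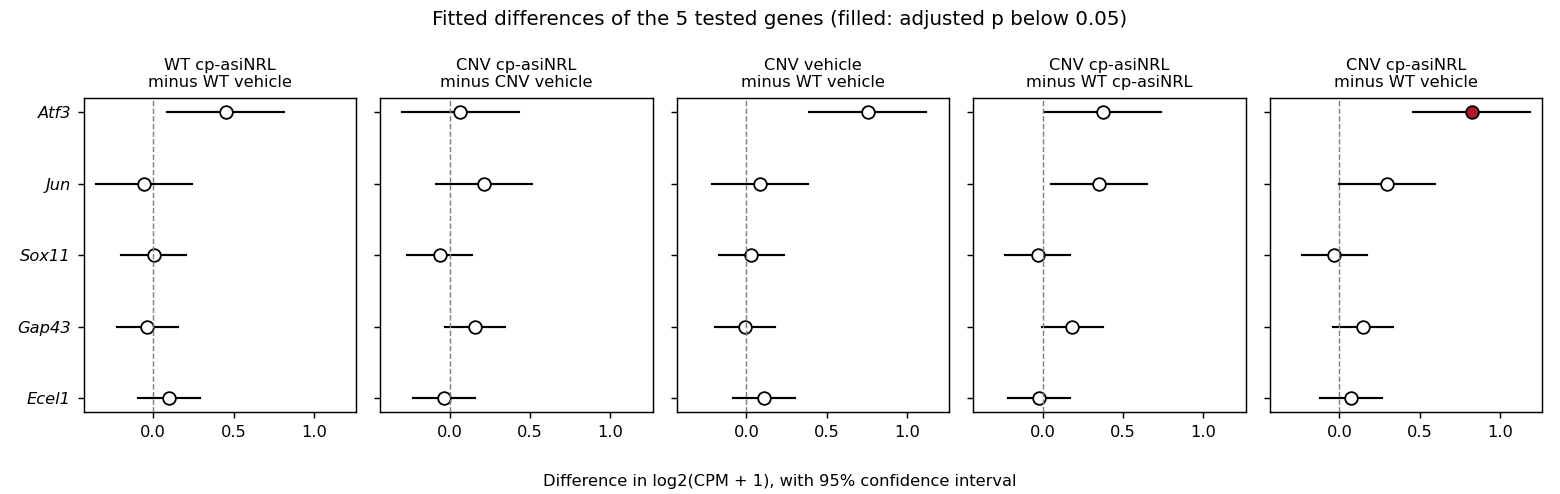
Fitted differences in log2(CPM + 1) of the 5 tested genes in the 5 comparisons between groups, with 95% confidence intervals. The only filled point, with an adjusted p below 0.05, is Atf3 in CNV cp-asiNRL minus WT vehicle retina at 0.82. The intervals of Sox11, Gap43 and Ecel1 span 0 in every panel.

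Over the comparisons, 1 of 5 tested members was called in CNV cp-asiNRL against WT vehicle retina and 0 of 5 in each of the other 7 fits by limma. At an unadjusted p under 0.05, those 7 fits held 1 member for cp-asiNRL in WT retina, 0 for cp-asiNRL in CNV retina, 1 for its mean, 1 for the laser after vehicle, 2 for the laser after cp-asiNRL, 2 for its mean and 0 for the difference of the effects. Of all genes tested, 15.3%, 16.1%, 24.1%, 7.67%, 17.2%, 18.1% and 6.21% were under the same threshold in these fits. voom called no member in any of the 7, while quality weights called 1 member for cp-asiNRL in CNV retina, 2 for the laser after cp-asiNRL, 2 for the laser mean and 0 in the other 4. These weights called 11.4%, 17.2% and 13.7% of all genes in the first 3, and 23% for the mean cp-asiNRL difference with 0 members. Quality weights also raised the share of all genes called between CNV cp-asiNRL and WT vehicle retina to 30.8%. Across the 12 libraries, Atf3 and Jun had a Pearson correlation of 0.69 in log2(CPM + 1) and Jun and Gap43 one of 0.60, while the other pairs of the 5 tested genes lay between 0.00 and 0.50. These libraries share their groups and depth, so the correlations describe them only.

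Around the 7 genes stood 10 lists with 113 further genes, of which 93 were tested. The lists were chosen with earlier results of these data known, so their shares of calls are a description only. In CNV cp-asiNRL against WT vehicle retina, 14 of the 93 rose and 3 fell, 18.3% in all beside 9.85% of all genes tested. For cp-asiNRL in WT retina the same lists held 1 call, beside 0.141% of all genes. For the mean cp-asiNRL difference over both retina states they held 4, beside 2.36%. Of the 93 genes, 25 and 35 had an unadjusted p under 0.05 in these fits, beside 15.3% and 24.1% of all genes. The lists held 0 calls for cp-asiNRL in CNV retina, for the 3 laser comparisons and for the difference of the effects. At an unadjusted p under 0.05 these last 5 held 22, 12, 21, 22 and 12 of the 93 genes, in that order, beside 16.1%, 7.67%, 17.2%, 18.1% and 6.21% of all genes tested. With the library labelled CNV cp-asiNRL replicate 2 left out, when 32.1% of all genes were called, 7 of 15 AP-1 and ATF partners rose and 2 fell, 12 of 23 regeneration-associated genes rose and 2 fell, and 5 of 15 growth cone genes rose and 1 fell. The 17 calls against WT vehicle kept their direction under all 22 alternatives, and none of them passed with no filter on low values, with only the groups compared, without CNV cp-asiNRL replicate 1 or 3 or without WT vehicle replicate 1, 2 or 3.

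Among the 15 partners of Atf3 and Jun in the AP-1, ATF and C/EBP families, 7 rose and none fell between CNV cp-asiNRL and WT vehicle retina, with 12 above 0 and a list median of 0.25 against 0.00 over all genes. Cebpd, a C/EBP factor of acute inflammation, had 14.6, 4.68 and 17.2 CPM in CNV cp-asiNRL retina, against 1.66, 1.49 and 2.36 CPM in WT vehicle retina, a difference of 2.06 (SE 0.46, adjusted p = 0.0249). All 3 CNV cp-asiNRL values were above all 3 WT vehicle values, with the library labelled replicate 2 nearest to them. Junb, an AP-1 subunit, rose by 1.27 (SE 0.27, adjusted p = 0.0232), to 13.9 ± 5.36 CPM in CNV cp-asiNRL retina, against 4.89 ± 0.439 CPM in WT vehicle retina. Fos and Fosl2, which pair with Jun proteins, rose by 0.65 (SE 0.15) and 0.92 (SE 0.25). The remaining calls were Cebpb, Maff and Atf7, with differences of 0.58, 0.53 and 0.25. Cebpb averaged 0.931 CPM in CNV cp-asiNRL and 0.269 CPM in WT vehicle retina, and Maff 1.03 and 0.398 CPM. At such levels the added 1 shrinks the differences, so they cannot be ranked beside that of Fos, at 17.0 and 10.3 CPM. After the laser with vehicle, Cebpd had 2.81, 13.8 and 4.45 CPM, and replicate 2 of that group lay within the range of CNV cp-asiNRL retina.

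Of 23 tested regeneration-associated genes outside the 7, 6 rose and 1 fell in the same comparison, with a list median of 0.15. Stat3, the transcription factor downstream of gp130 cytokines, had 94.0, 63.3 and 119 CPM in CNV cp-asiNRL retina, against 47.6, 47.5 and 46.3 CPM in WT vehicle retina, a rise of 0.91 (SE 0.19, adjusted p = 0.0219). Socs3, which restrains that signal and axon regrowth, rose by 1.62 (SE 0.44), and Il6st, which encodes gp130, by 0.38 (SE 0.09). Cd44, a hyaluronan receptor, rose by 1.33 (SE 0.29), Chl1, a neural adhesion molecule, by 1.12 (SE 0.26), and Anxa2, a membrane-binding annexin, by 0.67 (SE 0.14). The gene that fell was Adcyap1, which encodes the neuropeptide PACAP, to 1.30 ± 0.109 CPM in CNV cp-asiNRL retina, against 1.91 ± 0.267 CPM in WT vehicle retina (SD, n = 3 each), a call that held in 7 of 22 alternatives. Vip, a related neuropeptide of amacrine cells, fell by 0.40 (SE 0.08, adjusted p = 0.0247) in the mean of both cp-asiNRL differences. Vip had 2.84, 3.18 and 3.08 CPM in CNV cp-asiNRL, 4.44, 4.57 and 4.65 CPM in CNV vehicle, 3.33, 3.11 and 2.57 CPM in WT cp-asiNRL, and 3.34, 3.95 and 4.88 CPM in WT vehicle retina.

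**Figure D4:**
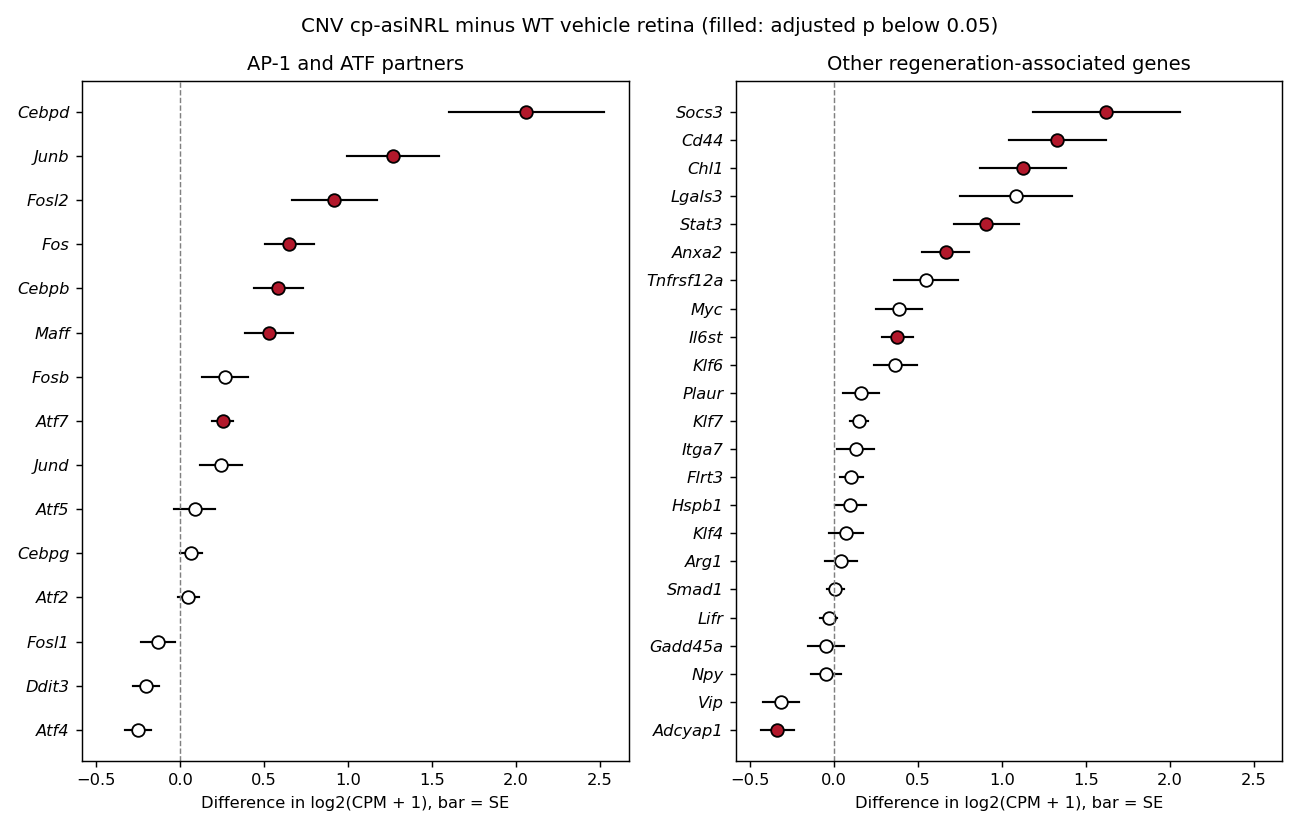
Differences in log2(CPM + 1) between CNV cp-asiNRL and WT vehicle retina for the 15 AP-1 and ATF partners (left) and the 23 tested regeneration-associated genes (right), with bars of 1 SE. Filled points have an adjusted p below 0.05: 7 on the left, all above 0, and 7 on the right, of which Adcyap1 alone lies below 0.

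In the other lists of the pathway, calls between CNV cp-asiNRL and WT vehicle retina numbered 0 or 1 per list, beside 9.85% of all genes. None of the 11 DLK and JNK kinases and scaffolds was called in any of the 8 fits, and Map3k12, which encodes DLK, averaged 81.0 ± 4.10 CPM in CNV cp-asiNRL and 85.2 ± 2.69 CPM in WT vehicle retina (SD, n = 3 each). Of 15 growth cone and cytoskeletal genes, 1 was called, Tuba1a, a tubulin of growing neurons, which fell to 168 ± 8.89 CPM in CNV cp-asiNRL retina, against 197 ± 12.6 CPM in WT vehicle retina, a difference of -0.23 (SE 0.06, adjusted p = 0.0422) that passed in 8 of 22 alternatives. Tuba1a also fell in the mean of both cp-asiNRL differences, by 0.20 (SE 0.05, adjusted p = 0.0392). Of 10 genes of the integrated stress response after axon injury, Ddit4, an inhibitor of mTOR signalling, fell by 0.35 (SE 0.10, adjusted p = 0.0386) between CNV cp-asiNRL and WT vehicle retina, a call that held in 9 of 22 alternatives. None of 11 ganglion cell death genes was called there, and Casp9, an initiator caspase, fell by 0.21 (SE 0.05, adjusted p = 0.0372) in the mean of both cp-asiNRL differences. The calls of Vip, Tuba1a and Casp9 in that mean were not followed under the alternatives, in which it called 50 to 5882 genes. Among 5 tested relatives of Ecel1, Phex, an endopeptidase known for its part in phosphate balance, rose by 0.46 (SE 0.08, adjusted p = 0.0395) after cp-asiNRL in WT retina. Phex also rose between CNV cp-asiNRL and WT vehicle retina, by 0.28 (adjusted p = 0.0358), a call that held in 12 of 22 alternatives. It was called higher in the mean of both cp-asiNRL differences as well. Its calls in WT retina and in the mean were not followed under the alternatives. Phex had 15.9, 15.3 and 14.3 CPM in WT cp-asiNRL retina, against 10.2, 10.6 and 11.5 CPM in WT vehicle retina. Of the galanin receptors, only Galr2 was high enough to test, at 1.09 ± 0.128 CPM in CNV cp-asiNRL and 0.892 ± 0.183 CPM in WT vehicle retina, and it was not called in any comparison.

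Markers of other retinal cells moved in the same comparison as Atf3. That comparison called 9.85% of all genes tested, and 32.1% with the library labelled CNV cp-asiNRL replicate 2 left out. It called 0% without CNV cp-asiNRL replicate 1, so no marker was called then, and 0.148% without replicate 3. Without WT vehicle replicate 1, 2 or 3 it called 0.0507%, 0.418% and 0.0195%. The marker lists were not counted without CNV cp-asiNRL replicate 3 or without a WT vehicle library. Between CNV cp-asiNRL and WT vehicle retina, 6 of 10 reactive glia markers, 8 of 15 microglia and macrophage markers and 4 of 8 Muller glia markers rose and none fell (9, 14 and 6 rose with the library labelled CNV cp-asiNRL replicate 2 left out), while 1 of 16 ganglion cell markers, Rbpms2, rose and 6 of 9 photoreceptor markers fell. Summed reactive glia markers were 242, 124 and 305 CPM in CNV cp-asiNRL, 103, 246 and 116 CPM in CNV vehicle, 149, 98.2 and 93.7 CPM in WT cp-asiNRL, and 73.4, 70.8 and 75.9 CPM in WT vehicle retina. Summed microglia and macrophage markers were 162, 74.6 and 149 CPM in CNV cp-asiNRL, 70.5, 130 and 75.3 CPM in CNV vehicle, 105, 65.0 and 63.3 CPM in WT cp-asiNRL, and 57.8, 61.8 and 59.4 CPM in WT vehicle retina. The highest Atf3 value of each CNV group stood in the library with that group's highest reactive glia sum, and the 3 WT vehicle libraries were lowest in Atf3 and in the reactive glia sum. In WT cp-asiNRL retina the highest Atf3 value, in replicate 3, stood beside the lowest reactive glia sum of that group, and in CNV cp-asiNRL retina the microglia sum was highest in replicate 1, not in replicate 3. None of the genes of the 2 lists was at 0 in all libraries, and their part in the Atf3 difference was not tested.

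**Figure D5:**
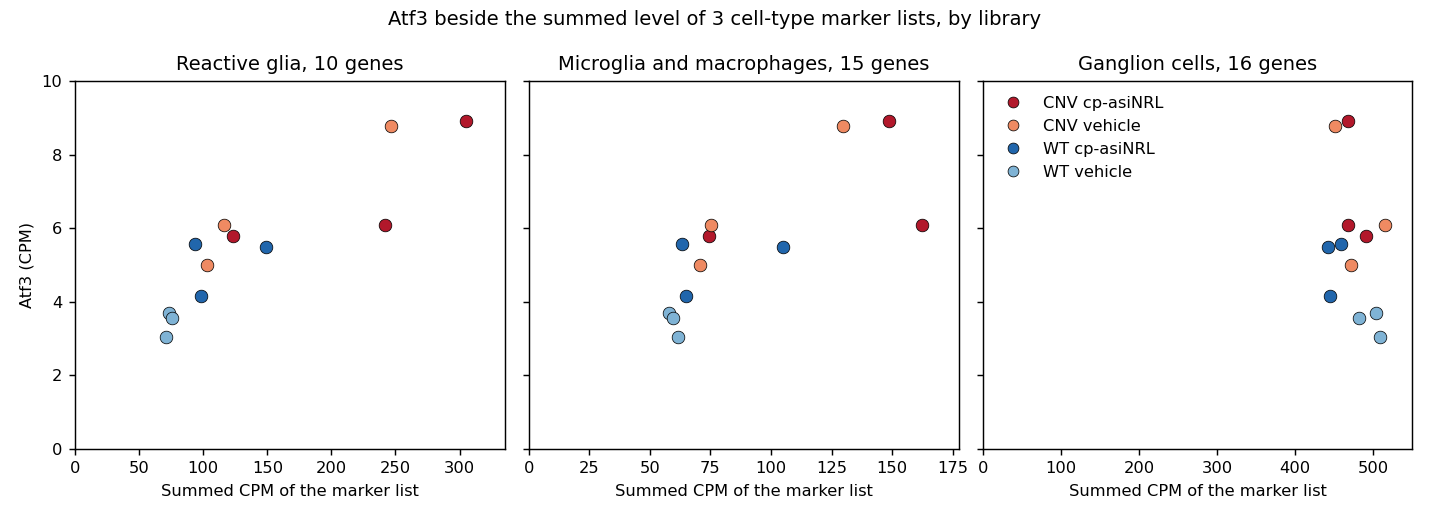
Atf3 in CPM against the summed CPM of 10 reactive glia, 15 microglia and macrophage, and 16 ganglion cell markers, with 1 point per library coloured by group. The WT vehicle libraries lie at the lower left of the first 2 panels, while the ganglion cell sums lie between 442 and 515 CPM in all libraries.

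The genes most like each tested member were ranked by Pearson's r of log2(CPM + 1) over the 12 libraries, among 14139 named genes with a mean of at least 1 CPM. Atf3 was followed most closely by Rcsd1 (r = 0.95), Nudt6 (0.95) and Slc6a2 (0.94). Jun was followed by Creb3l4 (0.98), Slc39a1 (0.97) and Capn1 (0.97), and Gap43 by Rcbtb2 (0.94), Lama4 (0.93) and Sox6 (0.91). For the flat Sox11 the highest values were 0.85 with Ky and 0.82 with Ppp1r14c, and for the sparse Ecel1 0.79 with Catsper3, 0.78 with Plk2 and 0.74 with Bard1. These are the highest of many correlations over libraries that share groups and depth.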

How the data were processed

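The library kit selects mRNA and keeps its strand, per the labels' protocols. The submitters' processing notes name HISAT2 2.1.0, featureCounts 1.6.0 and mm10, but the coordinates in the deposited file are those of GRCm39. Per the file headers the deposited values, a signal per gene, are FPKM, yet each value times the gene length was whole within 1e-06 for all 482424 values, so the authors' values are reads divided by gene length, introns included. Columns whose names carry CNV were matched to the laser titles. The prefix of the other columns is not explained in the labels, and they were matched to the WT titles by injection and replicate number.

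Recovered reads were scaled to CPM with trimmed-mean factors (trims of 30% and 5%). Genes with a CPM of at least 10 reads at the median library in 3 libraries and 15 reads in total were tested, which left 25619 genes and 5 of the 7 members. log2(CPM + 1) was fitted with limma 3.58.1 (trend) in R 4.3.3, over 12 libraries and 4 group means, and the scale understates changes of low genes. The design named a count test for raw counts, and the deposited unit called for limma instead. The procedure was tested on simulated data. Within groups no library was a copy of another, with a chi-square per gene of 3.97 to 45.7, and pairs across groups were not compared. The members and the 24 gene lists were chosen with earlier results of these data known. Named list genes were those called in a comparison and up to 3 per list with the smallest mean rank of p, and not all are printed. Of the genes most like each member, the 3 with the highest r were named, and 1 of them is not reported here. Alternatives changed the scaling, filter, pseudocount or set of libraries, added a replicate block, or used voom with or without quality weights. Added after the data were seen were a correction for gene span and list counts without 3 libraries in turn.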

Additional observations from a re-analysis of the deposited data

How the results depend on the processing

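Over 34 member differences and 739 alternatives, 685 kept their direction and their side of the threshold, 7 lost a call, 17 gained one and 30 changed sign. Sox11 and Ecel1 were left out of this count for the means and the difference of effects. None of the changes of sign concerned a call, and the cause of the changes was not tested. The 7 lost calls are those of Atf3 given above.

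Members called changed as follows. With only the groups compared, 1 was called for cp-asiNRL in WT retina, 1 for the laser after vehicle and 0 for CNV cp-asiNRL against WT vehicle, where no filter also gave 0. All genes called with only the groups compared were 8.38%, 0.613% and 0% of those tested. That setting leaves the means and the difference of effects as they are. With quality weights the counts were 1 for cp-asiNRL in CNV retina, 2 for the laser after cp-asiNRL, 2 for the laser mean and 3 for CNV cp-asiNRL against WT vehicle, beside 11.4%, 17.2%, 13.7% and 30.8% of all genes. Leaving out each library gave 0 to 1, 0 to 2, 0 to 3 and 0 to 3 in those 4 comparisons, the highest without CNV cp-asiNRL replicate 2, when 17.5%, 17.9%, 17% and 32.1% of all genes were called. All genes called between CNV cp-asiNRL and WT vehicle then ran from 0 to 8234, the first on leaving out CNV cp-asiNRL replicate 1, the second replicate 2.

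For cp-asiNRL in WT retina, Jun was 0.04998 with the span trend removed and -0.13 to 0.00014 with libraries left out. Sox11 was -0.0046 with only the groups compared, -0.0205 with quality weights and -0.0358 to 0.0377 with libraries left out, and Ecel1 -0.00075 to 0.15. For cp-asiNRL in CNV retina, leaving out libraries gave -0.11 to 0.26 for Atf3, -0.13 to 0.0324 for Sox11 and -0.11 to 0.0234 for Ecel1. Sox11 was 0.0484 with quality weights there, and Ecel1 0.0027 with the span trend removed. The mean cp-asiNRL difference of Jun ran from -0.0143 to 0.15. For the laser after vehicle, leaving out libraries gave -0.0515 to 0.27 for Jun, -0.0061 to 0.0738 for Sox11 and -0.0389 to 0.0130 for Gap43. For the laser after cp-asiNRL, Sox11 was 0.0717 with quality weights and -0.10 to 0.0621 with libraries left out, and Ecel1 0.18 and -0.0950 to 0.0734. Between CNV cp-asiNRL and WT vehicle, Sox11 was 0.00081 with library totals alone, 0.0511 with quality weights, 0.0496 with the span trend removed and -0.0981 to 0.0640 with libraries left out.

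With the replicate number as a block, Atf3 kept its call (adjusted p = 0.0463), but genes called in that comparison fell to 623 and the called pathway genes to 6 of 17. Same-numbered libraries correlated from -0.52 to 0.31 in their deviations from group means, with 4 of 18 pairs above 0.1. The lowest value was that of CNV cp-asiNRL replicate 2 and CNV vehicle replicate 2. The latter had the lowest Nrl of its group, 423 CPM beside 449 and 524 CPM. With 3 libraries per group, this check did not show pairing by replicate number and cannot exclude it. Fewer than 20 reads of Ecel1, Gal and Sprr1a per library limit what can be seen of them.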
